A study of Zea mays with 2 samples.

Results

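The genes that build, break down and interconvert asparagine and aspartate were examined in leaves of maize (Zea mays, strain Sugar 75) at the V5 stage. They comprised 17 of the 39634 genes in the library tables: 3 gene models listed by identifier (GRMZM2G146677, GRMZM2G082032 and GRMZM2G531230) and 14 further genes whose deposited description names an asparagine synthetase or synthase, an asparaginase or an aspartate aminotransferase or transaminase. The groups were 1 library of seaweed-treated plants, whose treatment was a product made from marine algae, and 1 library of control plants of the same strain, tissue and stage. Each was a pool of 3 samples, run with 2 technical replicates, in a study of drought stress. Neither the dose and timing of the seaweed extract nor the water supply of each pool is given in the sources used here, and treated leaves are those of the library not labelled control. The 3 listed models were singled out with the values of these same libraries known, so their difference between the libraries is a description and supports nothing further.

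Aspartate sits at a branch point of plant nitrogen metabolism. Aspartate aminotransferase makes it by moving the amino group of glutamate onto oxaloacetate, and in leaves with C4 photosynthesis, such as those of maize, aspartate also travels with malate between mesophyll and bundle sheath cells. Asparagine synthetase adds an amide group taken from glutamine to aspartate, giving asparagine, a nitrogen-rich compound used for storage and transport, and asparaginase splits asparagine back into aspartate and ammonium.

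Values are deposited FPKM, a fragment number scaled to gene length and to library size, with the deposited interval in parentheses. An interval covers quantification error alone and says nothing of how plants or pools vary. A group is a single library, so there is neither a replicate check nor a test, and each difference holds for these 2 libraries. Differences are given as log2 of (FPKM + 1) in the treated over the control library, a scale that understates the difference of low genes, and a gene was counted as higher or lower past a log2 ratio of 1 or -1. The bounds given with a fold set the lower bound of one library against the upper bound of the other. In bulk leaf RNA, fewer cells of a type and less RNA per cell cannot be told apart.

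Over all genes, 16272 reached 1 FPKM in at least 1 library, of which 604 (3.71%) were higher and 410 (2.52%) lower in the treated library. Their median log2 ratio was 0.22, and after centring on that median 327 (2.01%) were higher and 595 (3.66%) lower, so that the higher side made up 35.5% of the 2 directions in place of 59.6%. Of 5 leaf markers, the mesophyll gene pep1, the bundle sheath genes me3, ssu1 and RCA1 and the antenna gene Lhcb4, all 5 had the smaller value in the treated library and the lowest value was 36.1 FPKM, of ssu1 in the treated library, with a summed level of 2294 FPKM there and 4177 FPKM in the control. Their part in the differences below was not tested.

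All 17 genes had the quantification status OK in both libraries, and 9 reached 1 FPKM in at least 1 of them. Of these 9, the 3 listed models were higher in the treated library and none was lower. Their median log2 ratio was 0.39 (0.17 after centring), against 0.22 for all genes tested. Nothing is read from this count beside the background of 3.71%, because the listed models were chosen on it. The 6 tested genes that entered by description alone held no gene past either limit and had a median of 0.03, with 3 positive and 3 negative ratios. Their ratios lay between -0.72 and 0.51. The highest of them was asn1 at 0.51, and the lowest of the 3 listed models was at 1.36. Nothing is read from this gap either, because the listed models were chosen with their difference known.

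**Figure D1:**
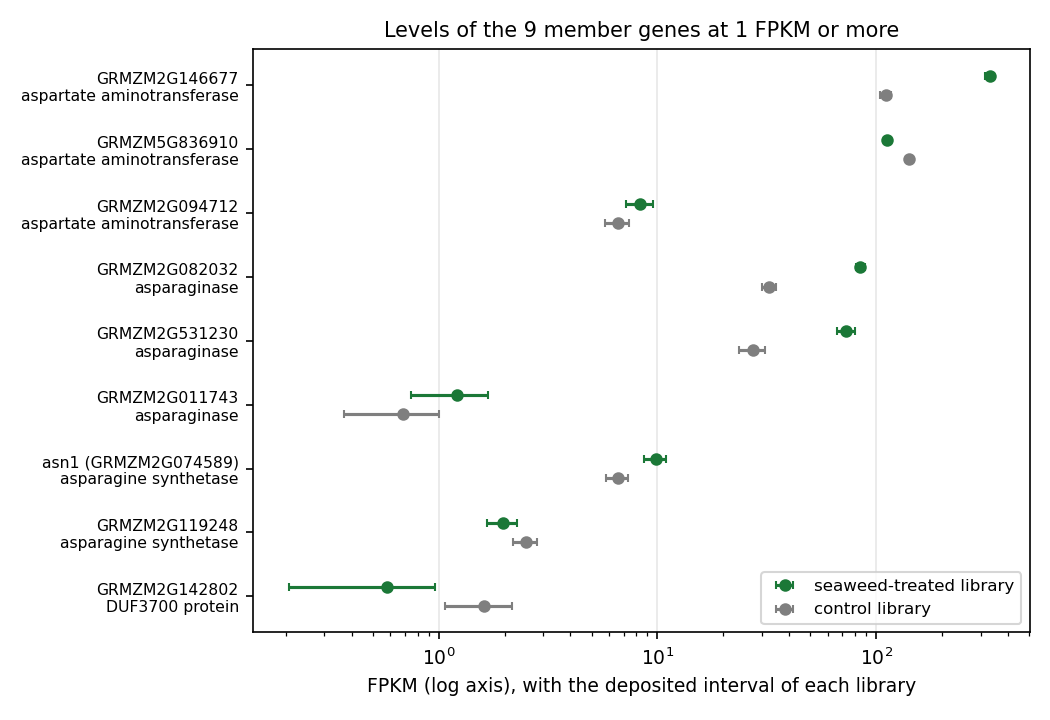
Levels of the 9 genes that reached 1 FPKM in at least 1 library, on a log axis, with the treated library (green) above the control library (grey) for each gene and the deposited intervals as bars. GRMZM2G146677, GRMZM2G082032, GRMZM2G531230 and asn1 have treated intervals above the control ones, GRMZM5G836910 and GRMZM2G142802 have them below, and the intervals of the other 3 genes overlap. Of all 16272 tested genes, 28.6% have treated intervals above and 8.76% below. The listed models GRMZM2G146677, GRMZM2G082032 and GRMZM2G531230 were chosen with their difference known.

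The aspartate aminotransferase genes differed in direction. GRMZM2G146677 (chromosome 5, 146841856 to 146847013, RefSeq LOC100274119) had 331 FPKM (315 to 347) in treated leaves, against 111 FPKM (104 to 117) in control leaves. That is 2.995-fold higher with bounds of 2.69 and 3.33, a log2 ratio of 1.57 (1.36 after centring), and the intervals did not overlap. The widths of these intervals correspond to about 1671 fragments in treated leaves and 1228 in control leaves, a smaller difference than that in FPKM. For the asparaginase model GRMZM2G082032 they correspond to about 1567 and 752. Why the 2 measures of GRMZM2G146677 differ was not tested, so its fold is less certain than the bounds imply. In the order of all genes by level GRMZM2G146677 stood at place 60 in treated leaves and at place 231 in control leaves. Of the 321 genes that reached 100 FPKM in either library, 20 were higher and 55 lower, and its ratio was the 8th from the top. That rank is a description only, because the gene was chosen with its difference known.

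GRMZM5G836910 (chromosome 5, 213904654 to 213909590, LOC100282625), annotated as the chloroplastic form, had 112 FPKM (108 to 115) in treated leaves, against 141 FPKM (137 to 145) in control leaves. Its fold of treated over control was 0.79 with bounds of 0.75 and 0.84, and its log2 ratio of -0.33 (-0.55 after centring) stayed inside the limit of -1. The intervals did not overlap, which held for 8.76% of all tested genes in this direction and for 28.6% in the other. The third gene, GRMZM2G094712 (chromosome 3, 195312989 to 195319148), annotated as chloroplastic aspartate aminotransferase 3, had 8.32 FPKM (7.15 to 9.49) in treated leaves and 6.59 FPKM (5.76 to 7.42) in control leaves, with overlapping intervals and a log2 ratio of 0.30.

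By FPKM, the order of the aspartate aminotransferases was therefore not the same in the 2 libraries. GRMZM2G146677 stood 2.96-fold above GRMZM5G836910 in treated leaves, whereas in control leaves GRMZM5G836910 stood 1.27-fold above GRMZM2G146677. The intervals of these genes did not overlap within either library. This order rests on the FPKM of GRMZM2G146677, whose implied fragments, 1671 in treated and 1228 in control leaves, differed less than its FPKM. Those of GRMZM5G836910 were 3907 and 5987 in the same order. The change of order, and the sum and shares below, are therefore less certain than the intervals imply. FPKM is scaled to gene length, so levels of different genes may be added. The sum over the 3 genes was 451 FPKM in treated leaves and 258 FPKM in control leaves, 1.75-fold higher. GRMZM2G146677 made up 73.4% of that sum in treated leaves and 42.8% in control leaves, while GRMZM5G836910 made up 24.8% and GRMZM2G094712 1.84% in treated leaves, against 54.6% and 2.55% in control leaves.

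**Figure D2:**
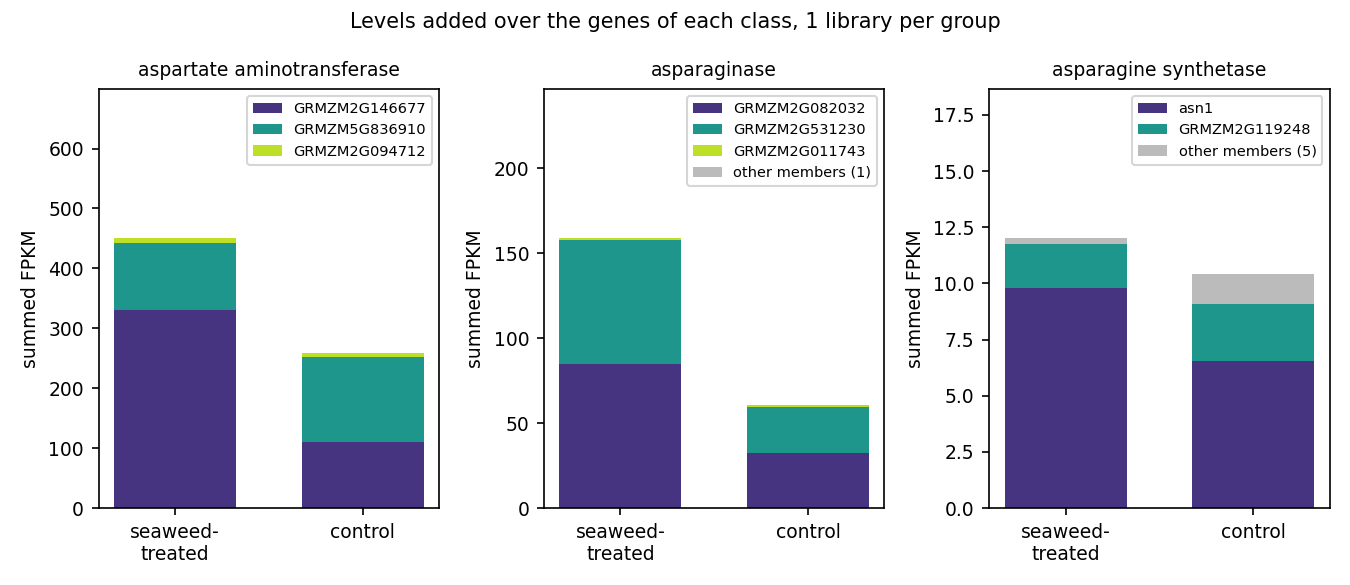
Summed FPKM of the aspartate aminotransferase, asparaginase and asparagine synthetase genes, with the treated library left of the control library and each gene as a segment. The aspartate aminotransferase sum is 451 FPKM in the treated and 258 FPKM in the control library, and depends on the less certain fold of GRMZM2G146677. The 2 large asparaginase segments belong to models that RefSeq joins in 1 gene, so their sum may count that gene 2 times.

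The asparaginase signal came almost wholly from a pair of neighbouring gene models on chromosome 2, which made up 53.3% and 45.9% of the summed asparaginase FPKM in treated leaves and 53.5% and 45.2% in control leaves. GRMZM2G082032 (5068413 to 5069908) had 84.8 FPKM (80.5 to 89.0) in treated leaves, against 32.3 FPKM (30.0 to 34.7) in control leaves, 2.62-fold higher with bounds of 2.32 and 2.97. GRMZM2G531230 (5071038 to 5071551) had 73.0 FPKM (66.0 to 80.0) in treated leaves and 27.3 FPKM (23.5 to 31.1) in control leaves, 2.67-fold higher with bounds of 2.12 and 3.41. Their log2 ratios were 1.36 and 1.39 (1.15 and 1.17 after centring), and for each model the treated interval lay above the control interval.

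The 2 models are not independent observations. They lie 1129 bases apart, share the description of an L-asparagine amidohydrolase and the domain PF01112, and RefSeq lists both identifiers as synonyms of 1 gene, LOC103645841. Their levels stood in nearly the same proportion in both libraries, with GRMZM2G082032 at 1.16 times GRMZM2G531230 in treated leaves and at 1.19 times in control leaves. Counted as 1 gene, the higher genes numbered 1 aspartate aminotransferase and 1 asparaginase. The summed asparaginase FPKM would then count that gene 2 times, so the sum is not set against those of the other enzymes.

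The other asparaginase genes had low levels in both libraries. GRMZM2G011743 (chromosome 10, 148544789 to 148548843), whose description joins asparaginase with an isoaspartyl peptidase class, had 1.21 FPKM (0.74 to 1.67) in treated leaves and 0.68 FPKM (0.37 to 0.998) in control leaves, with overlapping intervals. GRMZM2G129540, annotated as isoaspartyl peptidase and L-asparaginase 1, had 0.11 FPKM in each library, with both intervals reaching 0. GRMZM2G139463 matched by its name, but its annotation is that of a separate class, N(4)-(beta-N-acetylglucosaminyl)-L-asparaginase (3.5.1.26). It had 0.63 FPKM (0.27 to 0.99) in treated leaves and 0.83 FPKM (0.45 to 1.21) in control leaves, again overlapping.

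**Figure D3:**
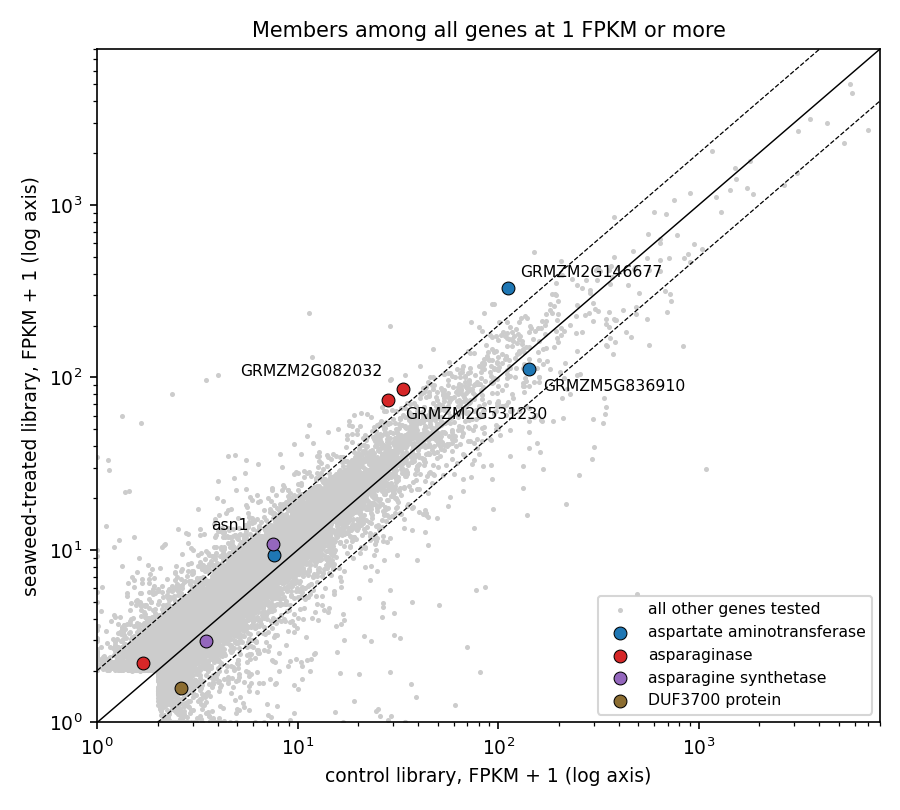
FPKM + 1 of all 16272 tested genes in the treated (vertical) and control (horizontal) library on log axes, with the 9 tested asparagine and aspartate genes coloured by enzyme, the diagonal as a solid line and 2-fold differences as dashed lines. The asparaginase pair and GRMZM2G146677 lie above the upper dashed line, and the other 6 lie between the dashed lines.

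Asparagine synthetase was represented mainly by asn1. The files annotate 7 of the genes with asparagine synthase activity. Among them asn1 (GRMZM2G074589, chromosome 9, 106787617 to 106796954) had 9.80 FPKM (8.71 to 10.9) in treated leaves and 6.57 FPKM (5.80 to 7.34) in control leaves, 1.49-fold higher with bounds of 1.19 and 1.88. Its intervals did not overlap, but its log2 ratio of 0.51 (0.29 after centring) did not reach the limit of 1. GRMZM2G119248 (chromosome 1, 156529979 to 156543121), a protein with an asparagine synthetase domain, had 1.97 FPKM (1.67 to 2.28) in treated leaves and 2.50 FPKM (2.19 to 2.82) in control leaves, with overlapping intervals.

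The remaining asparagine synthetase genes were below 1 FPKM in both libraries. The clearest difference among these was that of asn4 (GRMZM2G078472, chromosome 9, 137787161 to 137791159), with 0.14 FPKM (0 to 0.31) in treated leaves and 0.96 FPKM (0.67 to 1.25) in control leaves. The widths of these intervals correspond to about 2.90 fragments in treated leaves and 44.1 in control leaves, so the treated value rests on very few reads. asn3 (GRMZM2G053669) had 0.024 FPKM in treated leaves and 0.15 FPKM in control leaves, and GRMZM2G034428 had 0.069 and 0.23 FPKM in the same order, each with overlapping intervals. asn2 (GRMZM2G093175) had 0.023 FPKM in treated leaves and was listed at 0 in control leaves, and GRMZM2G313272, whose model also carries a late embryogenesis abundant domain, was listed at 0 in both.

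Summed over the 7 genes, asparagine synthetase had 12.0 FPKM in treated leaves and 10.4 FPKM in control leaves, 1.16-fold higher. asn1 made up 81.4% of this sum in treated leaves and 63.1% in control leaves, and asn4 1.20% and 9.20%. The mean level of the asparaginase pair, 78.9 FPKM in treated leaves and 29.8 FPKM in control leaves, was 8.05 times that of asn1 in treated leaves and 4.54 times in control leaves. Copies of one family can share reads, so the split between asn1 to asn4 is less certain than their sum.

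Another 2 genes carry the asparagine synthetase family description but, in the files, only the domain PF12481 and no asparagine synthase activity. GRMZM2G142802 (chromosome 10, 148424593 to 148425826) had 0.58 FPKM (0.21 to 0.96) in treated leaves and 1.61 FPKM (1.07 to 2.16) in control leaves, with intervals that did not overlap and a log2 ratio of -0.72 (-0.94 after centring). With a pseudocount of 0.1 it passed the limit of -1. GRMZM2G133023 had 0.51 FPKM in treated leaves and 0.71 FPKM in control leaves, with overlapping intervals.

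The authors' deposited table of genes higher in treated leaves held 1 of the 17 genes and that of lower genes another. In the authors' deposited table GRMZM2G531230 had a log2 fold change of 1.10 (p = 0.0383, q = 0.839) and asn4 had -3.01 (p = 0.01435, q = 0.557), and neither was marked significant there. GRMZM2G146677 and GRMZM2G082032 are in none of the 4 lists in the authors' deposited table set, whose largest p-value is 0.05. The longer list of higher genes also holds no log2 fold change below 1.04. Absence from it therefore does not by itself give a p-value above 0.05. That comparison set 1 library against 1 and compares those libraries, not the conditions. Its fold changes of 1.10 and -3.01 are not on the scale of the log2 ratios used here. Those were 1.39 for GRMZM2G531230 and -0.77 for asn4. The 1 FPKM added to each value shrinks the ratio of a low gene such as asn4. By plain FPKM, asn4 was 6.62-fold lower and GRMZM2G531230 was 2.67-fold higher in treated leaves. What part of the remaining difference comes from normalisation was not tested.

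Genes around the pathway were grouped in 6 lists by description. Among all tested genes 3.71% were higher and 2.52% lower, and nothing is read from the small counts of each list beside these shares. The lists go by wording, so they also took in genes of other routes, such as S-adenosylmethionine, N-acetylglutamate and folylpolyglutamate synthases and isopropylmalate dehydrogenases. The last list also holds enzymes whose description names aspartate in another reaction, such as aspartate-prephenate aminotransferase (GRMZM2G400604 and GRMZM2G033799), and LL-diaminopimelate aminotransferase is in both the first and the last list. The list for enzymes that turn aspartate into lysine, threonine and methionine held 24 tested genes of 37. It also took in enzymes that consume these products, such as threonine dehydratase (GRMZM2G155323) and lysine-ketoglutarate reductase (GRMZM2G181362). Its median is therefore not read as that of synthesis. None of the 24 was higher or lower, and their median log2 ratio was 0.21 (0.22 for all genes). The largest difference among those at 10 FPKM or more was that of LL-diaminopimelate aminotransferase (GRMZM2G010328), an enzyme of lysine synthesis, with 11.9 FPKM (10.6 to 13.1) in treated leaves and 8.25 FPKM (7.33 to 9.18) in control leaves. The diaminopimelate epimerase gene GRMZM2G130332, of the same route, had 13.1 and 10.4 FPKM in the same order, with intervals of 11.7 to 14.6 and 9.23 to 11.6 that barely missed each other.

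Enzymes that use aspartate for nucleotides, arginine and NAD held 8 tested genes of 9, again with none past either limit, and a median of 0.09. Adenylosuccinate synthase (GRMZM2G123204), which joins aspartate to a purine precursor, had 17.0 FPKM in treated leaves and 14.6 FPKM in control leaves. Argininosuccinate synthase (GRMZM2G010406), a step of arginine synthesis, had 9.53 and 10.6 FPKM in the same order, and both genes had overlapping intervals. The list of asparaginyl- and aspartyl-tRNA synthetases held 2 tested genes of 3, both annotated as asparaginyl-tRNA synthetases, with neither past a limit and ratios of 0.26 and 0.57, and neither reached 10 FPKM.

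The list for ammonium and glutamine, which supply the amide group of asparagine, held 15 tested genes of 23, with 1 higher, none lower and a median of -0.04. The glutamine synthetase gene gln5 (GRMZM2G036464) was the higher one, with 28.5 FPKM (26.2 to 30.8) in treated leaves and 12.4 FPKM (11.1 to 13.7) in control leaves, 2.30-fold higher. The glutamine synthetase gene gln1 (GRMZM2G098290), annotated to chloroplasts or mitochondria, had 6.74 FPKM (5.95 to 7.52) in treated leaves and 14.0 FPKM (12.9 to 15.1) in control leaves. After centring, gln5 at 0.92 was no longer past the limit and gln1 at -1.17 was.

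The list for carbon skeletons was drawn by the wording malate dehydrogenase or phosphoenolpyruvate carboxylase. It held 17 tested genes of 25 with a median of -0.21, 1 higher and none lower. Decarboxylating malate dehydrogenases (GRMZM2G085747 and GRMZM2G406672) are among them, so the median is not read as that of oxaloacetate supply. The higher gene, PPCK1 (GRMZM2G178074), entered by its wording and encodes a kinase related to the one that phosphorylates the carboxylase. It had 102 FPKM (96.3 to 108) in treated leaves and 33.4 FPKM (30.9 to 36.0) in control leaves, 3.05-fold higher. The carboxylase gene pep1 (GRMZM2G083841) itself had 1262 FPKM in treated leaves and 1747 FPKM in control leaves, a log2 ratio of -0.47.

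Aminotransferase genes outside the 17 members held 45 tested genes of 75, with 4 higher, 2 lower and a median of 0.26. All tested genes had a median of 0.22, with 3.71% higher and 2.52% lower. The range was the widest of the 6 lists, and this list also held the most genes. GRMZM2G153536, described only as a subgroup IIII aminotransferase, was 7.04-fold higher, with 32.0 FPKM (29.6 to 34.5) in treated leaves and 4.55 FPKM (3.79 to 5.31) in control leaves. GRMZM5G828630, described as related to subgroup I aminotransferases, had 14.9 FPKM (11.5 to 18.4) in treated leaves and 138 FPKM (128 to 149) in control leaves, a log2 ratio of -3.13. After centring, 2 of this list were higher and 3 were lower.

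**Figure D4:**
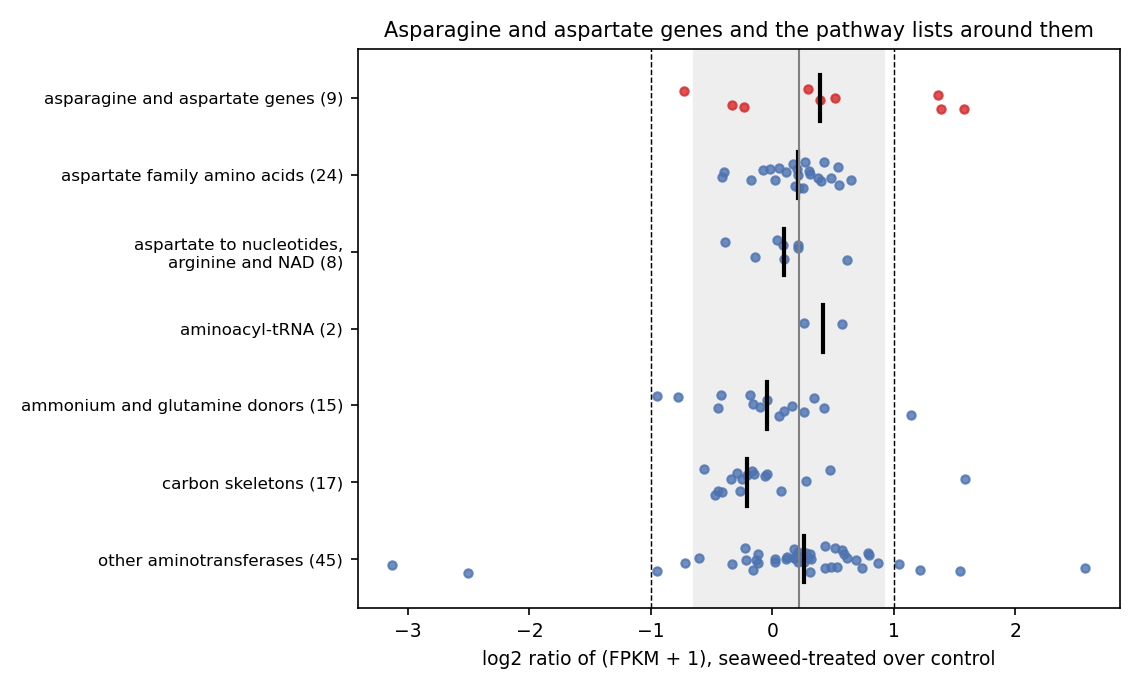
Log2 ratio of (FPKM + 1), treated over control, for the 9 tested asparagine and aspartate genes (red) and the tested genes of 6 surrounding lists (blue, numbers in parentheses), with each median as a black bar. The grey line is the median of all tested genes at 0.22, the grey band runs from their 5th to their 95th percentile (-0.65 to 0.91), and dashed lines mark the limits of -1 and 1, past which lie 3 of the red points.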

How the data were processed

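Leaf RNA of 1 seaweed-treated and 1 control library was sequenced. Cufflinks 2.2.1, Cuffdiff, Bowtie2 2.2.6, TopHat2 2.1.0, Picard 1.115 and cutadapt 1.8.1 are named, without their roles, in the submitters' processing notes. The sources used here give no genome build. Per the file headers, the authors deposited 1 FPKM value per gene with interval bounds and a status, and 4 tables of their own comparison with a log2 fold change, p-value and q-value, copied as deposited. The 8 columns of FPKM in those tables were not used.

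Log2((treated + 1)/(control + 1)) was computed for genes that reached 1 FPKM in either library (Python 3.11.15, pandas 2.3.3). The call rule was also run on simulated data, a check of the code that says nothing of the calls reported here. FPKM gives no library totals, so depth is known only through the intervals. Taking the distance to the upper bound as 2 standard errors of a Poisson count, the interval implies a number of fragments, between 9.59 and 5987 for the 9 tested genes. Reads assigned between transcripts widen an interval, so these numbers are lower than the reads assigned.

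The members and lists were chosen with earlier results of these data known. Every member at 1 FPKM or more was named with its values, the others briefly, and from each list the 2 genes at 10 FPKM or more with the largest absolute log2 ratio. Enzyme classes follow the deposited annotation. RefSeq names (Zm-B73-REFERENCE-NAM-5.0) matched 14 of the 17 members, and no RefSeq coordinates were used. Alternatives were other pseudocounts, other minimum levels, centring and a 1.5-fold limit.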

Additional observations from a re-analysis of the deposited data

How the results depend on the processing

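The 3 listed models were past the upper limit under every alternative tried, and no member was past the lower one, except 1 (GRMZM2G142802) with a pseudocount of 0.1 and with a limit of 1.5-fold. With a pseudocount of 0.1, 1361 of all genes were higher and 657 lower, 1 gene of the lysine, threonine and methionine list was higher and 1 of the ammonium and glutamine list lower, and with a pseudocount of 0.5, 921 of all genes were higher. The members' median changed sign, to -0.0070, over all 17 without a minimum and was 0.94 over the 6 at 5 FPKM or more, where 400 of all genes were higher and 242 lower among the fewer genes tested (7704). Centring, which by construction lowers every ratio by 0.22, left 327 of all genes higher, GRMZM2G082032 at 1.15, GRMZM2G146677 at 1.36 and GRMZM5G836910 at -0.55, with 0 higher and 1 lower in the ammonium and glutamine list and 2 higher among other aminotransferases. At 1.5-fold, 2696 of all genes were higher and 922 lower, with 1 higher in the lysine, threonine and methionine list, 1 higher in the nucleotide, arginine and NAD list, 2 lower in the ammonium and glutamine list, and 11 higher and 5 lower among other aminotransferases. No library could be left out. No paired analysis was possible because each group is 1 library. Implied fragments limit what the genes below 1 FPKM can show, with 2.90 for asn4 in treated leaves.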
